A study of Homo sapiens with 32 samples.

Results

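HEK293T cells, a transformed line derived from human embryonic kidney, were kept for 6 h in medium with 20 µM STM2457 in 0.2% DMSO or with 0.2% DMSO alone, and polyadenylated RNA was sequenced from 3 libraries of each condition. These 6 of the 32 libraries of the series were chosen by their labels, as the STM2457 and DMSO libraries of the siRNA experiment that carry no YTHDF2 siRNA. All 6 are labelled wild type, and the labels used here do not say whether these cells received the non-targeting siRNA that the protocol describes. The other libraries hold the same treatments with YTHDF2 siRNA (6 libraries, which share the estimate of spread used here), a 6 h treatment with STM2457 or DMSO within an emetine experiment, where a further 2 h with DMSO or emetine is labelled, and a 9 h treatment. The series is one cell line, and nothing in the labels says that the 3 libraries of a group came from separate cultures, so the p-values measure the spread between these libraries, which may be technical.

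N6-methyladenosine, m6A, is the most common internal modification of mRNA. It is written during transcription by METTL3 and its partner METTL14 together with the adaptors WTAP, VIRMA, ZC3H13, CBLL1, RBM15 and RBM15B, mostly at adenosines in motifs such as GGACT, in long exons and around stop codons, since exon junction complexes keep the writer away from nearby sequence. Cytoplasmic YTHDF proteins bind the mark, and YTHDF2 recruits the CCR4-NOT deadenylase so that marked transcripts are degraded. STM2457 blocks the catalytic site of METTL3. The comparison asks which transcripts differ in abundance after 6 h with METTL3 inhibited. Levels are given as CPM, the counts of a gene scaled to library size with trimmed-mean factors, changes as log2 of STM2457 over DMSO with the standard error of the edgeR fit, and a gene is called when edgeR's quasi-likelihood test gives a Benjamini-Hochberg adjusted p under 0.05 over all genes tested.

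The libraries held 39087016 to 42303951 gene counts with STM2457 and 39777743 to 40962030 with DMSO. The log2 CPM values of libraries within a group correlated at 0.994 to 0.995 for STM2457 and 0.995 to 0.996 for DMSO, against 0.984 to 0.989 between groups, as a description. STM2457 replicate 3 lay apart from the other two STM2457 libraries on the second principal component, and cytosolic ribosomal protein genes took 8.07% of its counts, against 6.82% and 6.92% in STM2457 replicates 1 and 2 and 6.29 to 6.42% in DMSO. ERCC spike-ins, synthetic RNAs added to the samples, took 0.415%, 0.328% and 0.463% of counts with STM2457 and 0.309%, 0.365% and 0.301% with DMSO. The groups overlapped, and the means of 0.402% ± 0.0684 with STM2457 and 0.325% ± 0.0352 with DMSO (SD, n = 3 each) gave an exact two-sided permutation p of 0.2, where 0.1 is the smallest p that 3 against 3 allows. In bulk RNA, fewer cells and less RNA per cell cannot be told apart. Of 10 markers of HEK293 lines 9 passed the filter, with summed levels of 1202 to 1367 CPM with STM2457 and 1240 to 1249 CPM with DMSO. Blood markers summed to 2.46 to 2.57 CPM with STM2457 and 2.76 to 3.03 CPM with DMSO, and 6 of the 13 had no count in any of the 6 libraries. Fibroblast markers summed to 22.1 to 27.1 CPM with STM2457 and 28.1 to 32.6 CPM with DMSO, and keratin epithelium markers to 37.0 to 46.0 CPM with STM2457 and 34.5 to 34.8 CPM with DMSO.

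Over all genes 16662 were tested, of which 3814 (22.9%) were higher and 3677 (22.1%) were lower with STM2457, 45% in all. Of the rises 21.6% were below 0.25 and 38.2% were 0.25 to 0.5 on the log2 scale, and of the falls 27.1% and 37.1%, while 292 genes (1.75%) rose by 2-fold or more and 504 (3.02%) fell by 2-fold or more. The 2-fold rises were mostly mRNAs, with 234 protein coding genes and 42 long noncoding RNAs among 292. Most 2-fold falls were not mRNAs, with 275 long noncoding RNAs and 151 protein coding genes among 504, and 330 of them lay in the quintile of genes with the lowest abundance. In the highest quintile of abundance 31.7% of genes were higher and 19% were lower, with 41 rises and 3 falls by 2-fold or more. Without overlap between the 3 STM2457 and the 3 DMSO libraries were 4142 higher genes (24.9%) and 4263 lower genes (25.6%). Relative to ribosomal protein genes the median change over all genes shifted by −0.26 and 1252 genes were higher and 7363 lower (14.5% of calls higher). Relative to spike-ins the shift was −0.37, with 398 higher and 5023 lower (7.34% higher), so the directions given here are relative to the bulk of the mRNA.

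RBM15, an adaptor that brings the m6A writer to its RNA targets, rose more than any other protein coding gene under the rule for named genes. It held 177, 181 and 192 CPM with STM2457, against 39.8, 39.1 and 39.3 CPM with DMSO, a log2 change of 2.22 (SE 0.05, edgeR adjusted p = 1.36e-15). The gene (chr1:110338506-110346681, GRCh38, plus strand) lies in 3 exons, and 1 of them spans 3763 of the 4244 bases of the transcript with the longest coding sequence. YTHDF2 itself (chr1:28736621-28769775), the m6A reader that hands transcripts to deadenylation, held 582, 617 and 656 CPM with STM2457 and 179, 182 and 174 CPM with DMSO (log2 change 1.79, SE 0.05, edgeR adjusted p = 4.75e-14). The groups were far apart for both genes, and the libraries within a group lay close together.

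The transcription factor HOXD13, a homeodomain protein of limb and genital patterning, held 423, 401 and 484 CPM with STM2457, against 114, 119 and 107 CPM with DMSO (log2 change 1.94, SE 0.07). ZNF503, a zinc finger repressor, held 898, 807 and 888 CPM with STM2457 and 228, 242 and 206 CPM with DMSO (1.94, SE 0.07). TRIM13, a ubiquitin ligase anchored in the endoplasmic reticulum, averaged 101 ± 5.78 CPM with STM2457 and 26.6 ± 0.641 CPM with DMSO (1.93, SE 0.05), but its exons overlap those of KCNRG. MAD2L1BP, which helps to switch off the mitotic checkpoint, was at 109, 107 and 139 CPM with STM2457, against 33.2, 31.7 and 32.7 CPM with DMSO (1.86, SE 0.08), and replicate 3 was the highest STM2457 library.

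A pair of these genes act in BMP signalling: ID3, an inhibitor of helix-loop-helix transcription factors, averaged 102 ± 7.46 CPM with STM2457 and 29.4 ± 2.29 CPM with DMSO (log2 change 1.80, SE 0.09), and BAMBI, a decoy receptor without a kinase domain, averaged 75.2 ± 5.08 CPM with STM2457 and 23.7 ± 2.09 CPM with DMSO (1.66, SE 0.07). CLP1, an RNA kinase of the pre-mRNA cleavage and tRNA splicing machineries, averaged 92.8 ± 11.3 CPM with STM2457 and 27.4 ± 0.606 CPM with DMSO (1.76, SE 0.07), and its exons overlap YPEL4. MED18, a head subunit of Mediator, averaged 69.1 ± 6.83 CPM with STM2457 and 21.2 ± 1.55 CPM with DMSO (1.71, SE 0.07). FEM1C, a substrate receptor of cullin-RING ubiquitin ligases, was at 78.1, 72.1 and 90.5 CPM with STM2457 and 26.4, 25.6 and 23.9 CPM with DMSO (1.66, SE 0.08). The metallophosphatase gene ADPRM was at 12, 12.7 and 14.9 CPM with STM2457 and 4.26, 3.74 and 3.78 CPM with DMSO (1.75, SE 0.09). The edgeR adjusted p of these 12 genes was 4.16e-11 or lower, and all 12 stayed positive with scaling to ribosomal protein genes (1.39 to 1.95) and to spike-ins (1.28 to 1.85).

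SDHAF1 fell most. This assembly factor inserts iron-sulfur clusters into succinate dehydrogenase, complex II of the respiratory chain, and its gene (chr19:35995199-35996315, plus strand) is 1 exon. It held 2.85, 3.01 and 2.33 CPM with STM2457, against 15.9, 16.7 and 15.4 CPM with DMSO, a log2 change of −2.55 (SE 0.09, edgeR adjusted p = 3.68e-13). HNRNPLL (chr2:38561978-38603586, minus strand), an RNA-binding regulator of alternative splicing known from lymphocyte activation, held 9.21, 9.19 and 10.3 CPM with STM2457, against 49.4, 49.9 and 51.3 CPM with DMSO (−2.39, SE 0.06, edgeR adjusted p = 2.78e-15). For both genes every STM2457 library lay far below every DMSO library.

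ATXN7L3B, a single-exon gene whose protein is related to a subunit of the SAGA deubiquitinase, held 34.6, 36.1 and 29.5 CPM with STM2457 and 136, 132 and 130 CPM with DMSO (log2 change −1.99, SE 0.07). WDR6, a WD-repeat protein that takes part in tRNA methylation, averaged 49.5 ± 5.62 CPM with STM2457 and 180 ± 8.69 CPM with DMSO (−1.86, SE 0.07), and its exons overlap DALRD3 and P4HTM. CHML, a Rab escort protein, averaged 17 ± 2.88 CPM with STM2457 and 56.8 ± 1.56 CPM with DMSO (−1.74, SE 0.10), with exons that overlap OPN3. ZNF33B, a zinc finger gene, was at 8.16, 7.96 and 8.15 CPM with STM2457 and 26.6, 28.7 and 27.9 CPM with DMSO (−1.78, SE 0.09), a difference far outside the spread of either group. DHFR2, a dihydrofolate reductase of mitochondria that overlaps NSUN3, averaged 2.40 ± 0.707 CPM with STM2457 and 9.50 ± 0.447 CPM with DMSO (−1.99, SE 0.15). BCHE, which encodes butyrylcholinesterase, averaged 5.23 ± 0.219 CPM with STM2457 and 17.1 ± 1.37 CPM with DMSO (−1.71, SE 0.09). The other 4 falls of this rank were ENSG00000285053, without a symbol in the files and overlapping GGPS1 and TBCE (−2.02), C14orf132 (−1.93), SMIM10 (−1.85) and ARMH4 (−1.67). The highest edgeR adjusted p among the 12 falls was 2.85e-09, and they stayed negative under both other scalings (−2.81 to −1.94 and −2.90 to −2.06).

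**Figure D1:**
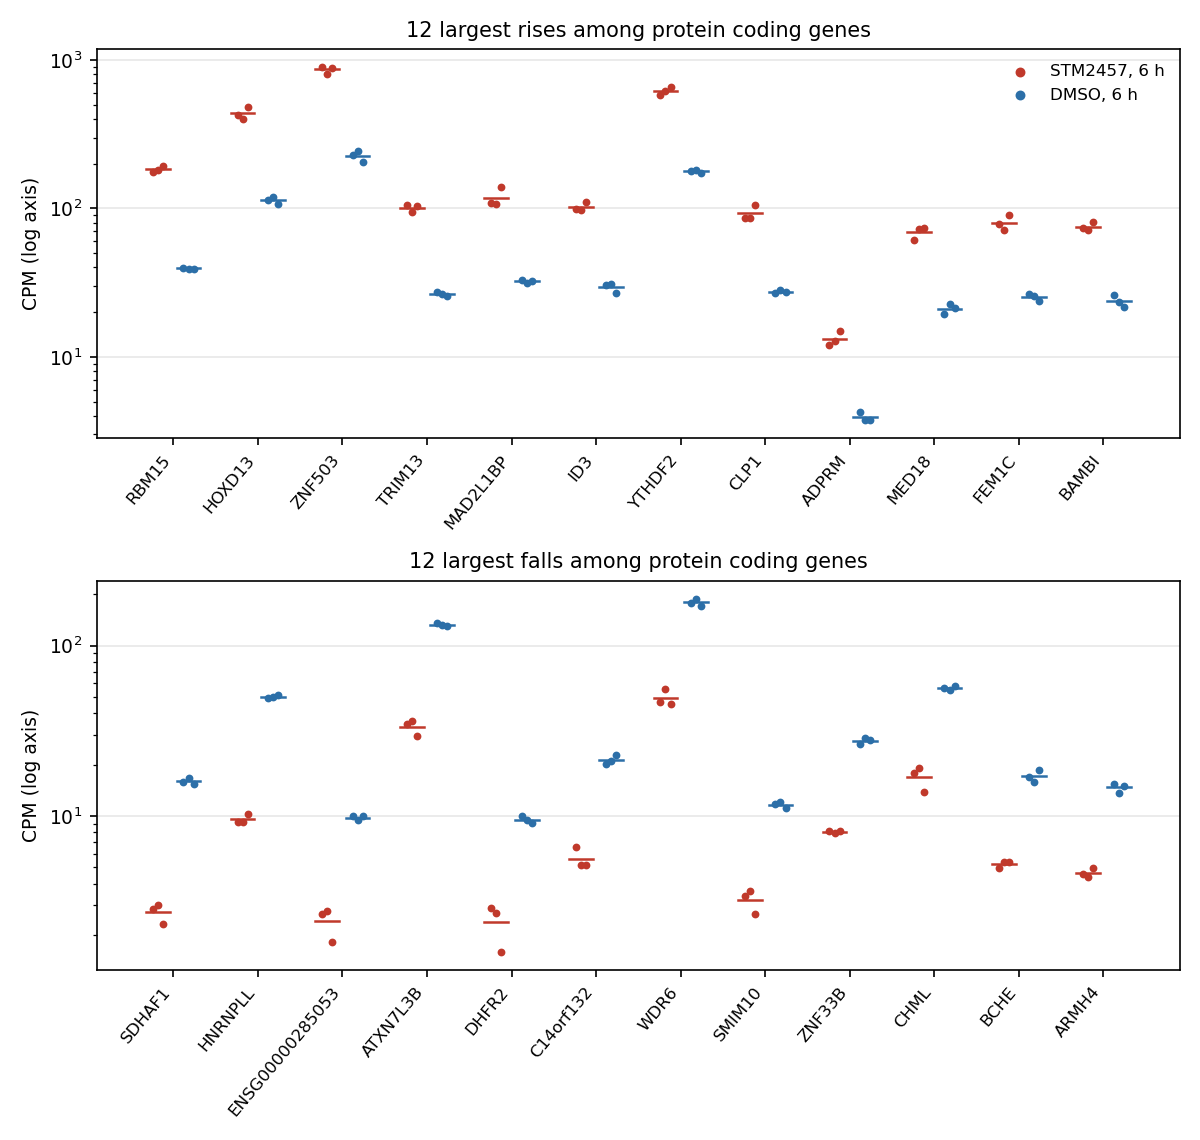
Level of the 12 protein coding genes with the largest rise (upper panel) and the largest fall (lower panel), in CPM on a log axis. Points are single libraries, STM2457 left of DMSO for each gene, and bars are means of 3 libraries. RBM15 libraries sit between 177 and 192 CPM with STM2457 and near 39 CPM with DMSO, SDHAF1 libraries between 2.33 and 3.01 CPM with STM2457 and between 15.4 and 16.7 CPM with DMSO, and no gene shown has overlapping groups.

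The coding sequences of these genes were searched on the transcript strand for GGACT, the commonest form of the m6A motif, with the adenosine at least 100 nt from every exon junction of the GENCODE 29 transcript with the longest coding sequence. Among all 13425 protein coding genes with such a transcript 32.9% hold at least 1. Of the 12 largest rises 7 hold at least 1, and of the 12 largest falls 5 do. Genes with few exon junctions hold such motifs more often. In the lowest quintile of junctions per kb of transcript 1275 genes hold none, 686 hold 1 and 725 hold 2 or more. That quintile contains 6 of the 12 rises and 7 of the 12 falls. Windows around the motif are shown for 5 of the rises, as examples of the sequence counted across genes further on, with the motif in capitals and in the direction of transcription.
RBM15 (chr1:110339581-110339605, plus strand): gtggtggtgaGGACTcgacttcccg
RBM15 (chr1:110341191-110341215, plus strand): cgcagcactcGGACTgcagctactt
ZNF503 (chr10:75399749-75399773, minus strand): ctctgggctcGGACTgcggcggttc
YTHDF2 (chr1:28743691-28743715, plus strand): aatctgctgtGGACTacaacacatg
CLP1 (chr11:57661018-57661042, plus strand): agcgctccaaGGACTtccggcggga
FEM1C (chr5:115525309-115525333, minus strand): tacagtgataGGACTaatattatta
From the falls, 1 window each is shown for WDR6, BCHE and ARMH4.
WDR6 (chr3:49011795-49011819, plus strand): tggaagcaagGGACTccgagttgtg
BCHE (chr3:165830088-165830112, minus strand): gtcccctatgGGACTcctttgtcag
ARMH4 (chr14:58138930-58138954, minus strand): tcctgaaagtGGACTtgccaaggcc
A match is a description of the letters and does not show that the adenosine is methylated. HOXD13, ID3, TRIM13 and MED18 rose by 1.71 to 1.94 and have no GGACT in the coding sequence of this transcript at all, and neither do SDHAF1, ATXN7L3B, SMIM10 and CHML among the falls.

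Across protein coding genes the change ran with gene structure. Genes with few exon junctions per kb of transcript were more often higher and genes with many were more often lower. In the lowest quintile (up to 1.12 junctions per kb, 2686 genes) the median log2 change was 0.19, with 46% of genes higher and 15.6% lower. The next quintiles had medians of 0.07, −0.01 and −0.05, and in the highest (5.15 to 17.2 junctions per kb, 2685 genes) the median was −0.11, with 8.53% higher and 31.2% lower, against 25.9% and 22.1% of all protein coding genes. Changes past 2-fold were most frequent in the lowest quintile in both directions, with 5.88% of its genes higher and 2.57% lower. In the highest quintile these shares were 0.261% and 0.819%. Spearman's rho across 13425 genes was −0.287, as a description, since the genes come from the same libraries. The difference of medians between the outer quintiles was 0.29, with values of 0.33, 0.27 and 0.30 when each STM2457 library was set against the mean of the DMSO libraries, and 0.27 in the emetine experiment. GC content ran in the same way, with rho of −0.221 and medians of 0.09 in its lowest quintile and −0.11 in its highest. In the emetine experiment these medians were 0.03 and −0.01, and at 9 h −0.04 and 0.02. The part of GC content in the pattern was not tested. The 335 genes of a single exon spread widely, with a median of 0.18, 40% higher and 19.7% lower, and 8.36% and 6.57% past 2-fold in each direction.

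The change also ran with the number of coding GGACT away from junctions. Genes with none had a median of −0.04 (9007 genes), genes with 1 had 0.05 (2512), genes with 2 had 0.14 (994) and genes with 3 or more had 0.18 (912, of which 44.6% were higher and 17.2% lower). Within the lowest quintile of junction density the medians were 0.31 for genes with 2 or more (725 genes), 0.26 for genes with 1 (686) and 0.11 for genes with none (1275). Within the highest quintile they were −0.13, −0.13 and −0.10, with 11.2%, 10.7% and 8.12% of genes called higher and medians of −0.01, −0.05 and −0.08 in the emetine experiment. For motifs in the 3′ UTR the median was −0.00 for genes with 3 or more, 0.00 with 2, −0.00 with 1 and −0.01 with none, while 29.4%, 28.7%, 26.7% and 23.3% were called higher. The medians in the emetine experiment were 0.05, 0.04, 0.02 and 0.00. The difference of medians between genes with 2 or more and genes without coding motifs was 0.19 (0.23 and 0.23 for STM2457 replicates 1 and 2, 0.08 for replicate 3, and 0.24 in the emetine experiment). That for the 3′ UTR was 0.01 (0.05, 0.03 and −0.04, and 0.04 in the emetine experiment). At 9 h these differences were 0.39 for coding and 0.15 for 3′ UTR motifs. The pattern for coding motifs held only with the distance rule. With coding GGACT counted at any distance from junctions, the medians were 0.02 for none, 0.00 for 1, −0.01 for 2 and −0.04 for 3 or more. Of the genes with 3 or more by that count, 24.4% were called higher and 25.7% lower.

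**Figure D2:**
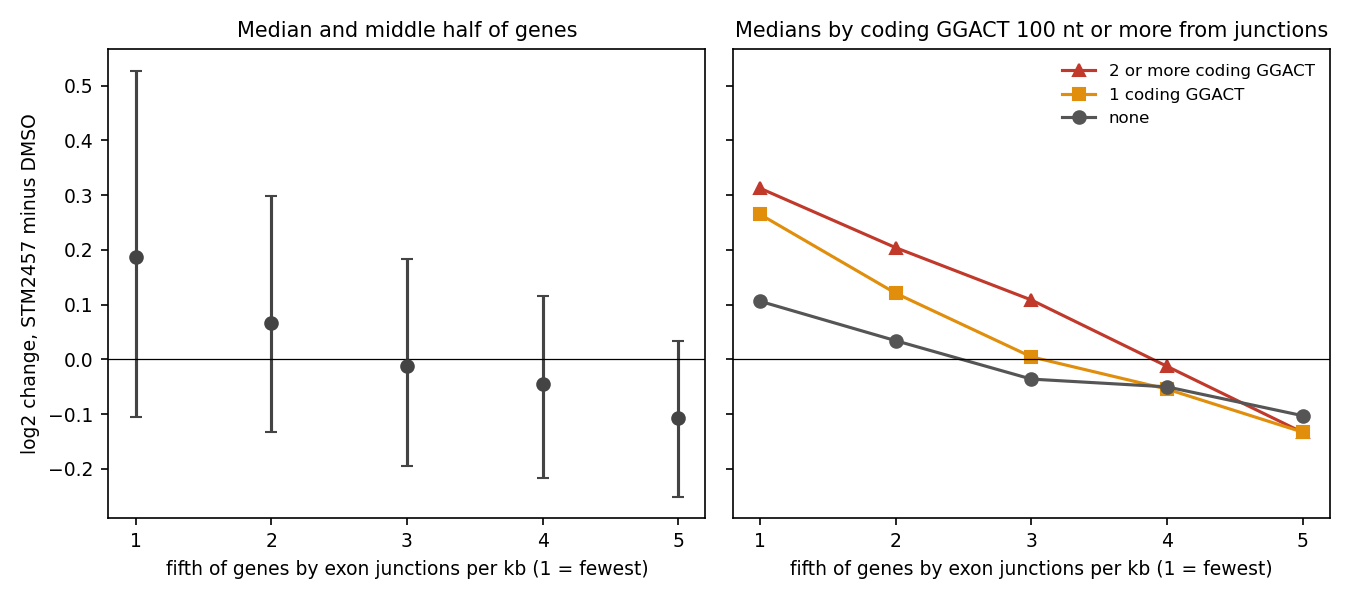
Log2 change of protein coding genes, STM2457 minus DMSO, by quintile of exon junctions per kb of transcript. The left panel gives the median with the range of the middle 50% of genes, from 0.19 in quintile 1 to −0.11 in quintile 5. The right panel gives medians for genes with 2 or more, 1 or no coding GGACT at least 100 nt from a junction, which lie apart in quintiles 1 to 3 and close together in quintile 5.

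Among the m6A genes all 8 writers were called higher, 5 of them also with scaling to ribosomal protein genes and 3 also with scaling to spike-ins, where METTL3 (both scalings) and ZC3H13 (spike-ins) turned negative. RBM15B, the paralog of RBM15, held 266, 285 and 267 CPM with STM2457, against 116, 120 and 110 CPM with DMSO (log2 change 1.24, SE 0.05), with exons that overlap DCAF1. WTAP, the scaffold that places METTL3 and METTL14 in nuclear speckles, was at 241, 240 and 285 CPM with STM2457 and 130, 135 and 124 CPM with DMSO (0.98, SE 0.06; it overlaps SOD2). CBLL1, METTL14 and VIRMA rose by 0.60, 0.56 and 0.44, and ZC3H13 by 0.28, which became −0.07 with scaling to spike-ins. METTL3 encodes the protein that STM2457 inhibits, and its exons overlap TOX4. It was at 73.7, 78.2 and 75.1 CPM with STM2457 and 68.7, 68.8 and 69.2 CPM with DMSO (0.13, SE 0.04, edgeR adjusted p = 0.0197). That call was lost without STM2457 replicate 2 (adjusted p = 0.115) or any 1 DMSO library (0.0703 to 0.0951), and the sign turned to −0.13 and −0.23 with ribosomal protein or spike-in scaling.

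Of 12 readers 4 rose and 1 fell, and 8 were called in all without STM2457 replicate 2. Their median of 0.04 turned to −0.21 with ribosomal protein scaling (4 higher and 7 lower) and to −0.31 with spike-in scaling (3 higher and 3 lower). The 3 cytoplasmic YTHDF paralogs rose by 1.79 (YTHDF2), 1.04 (YTHDF3) and 0.85 (YTHDF1), and the nuclear reader YTHDC1, which takes part in splicing and export, by 0.60. IGF2BP3, a reader described as stabilising marked mRNAs, was at 69.0, 70.4 and 66.5 CPM with STM2457 and 74.7, 74.5 and 78.3 CPM with DMSO (−0.14, edgeR adjusted p = 0.022, which was 0.057 without DMSO replicate 3). Its exons overlap MALSU1, and the other 7 readers did not pass. Of the erasers, ALKBH5 rose by 0.47 (319, 298 and 311 CPM with STM2457, 228, 226 and 215 CPM with DMSO) and FTO did not pass at −0.10 (edgeR adjusted p = 0.109), though it did without STM2457 replicate 2 (−0.15, 0.0317).

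**Figure D3:**
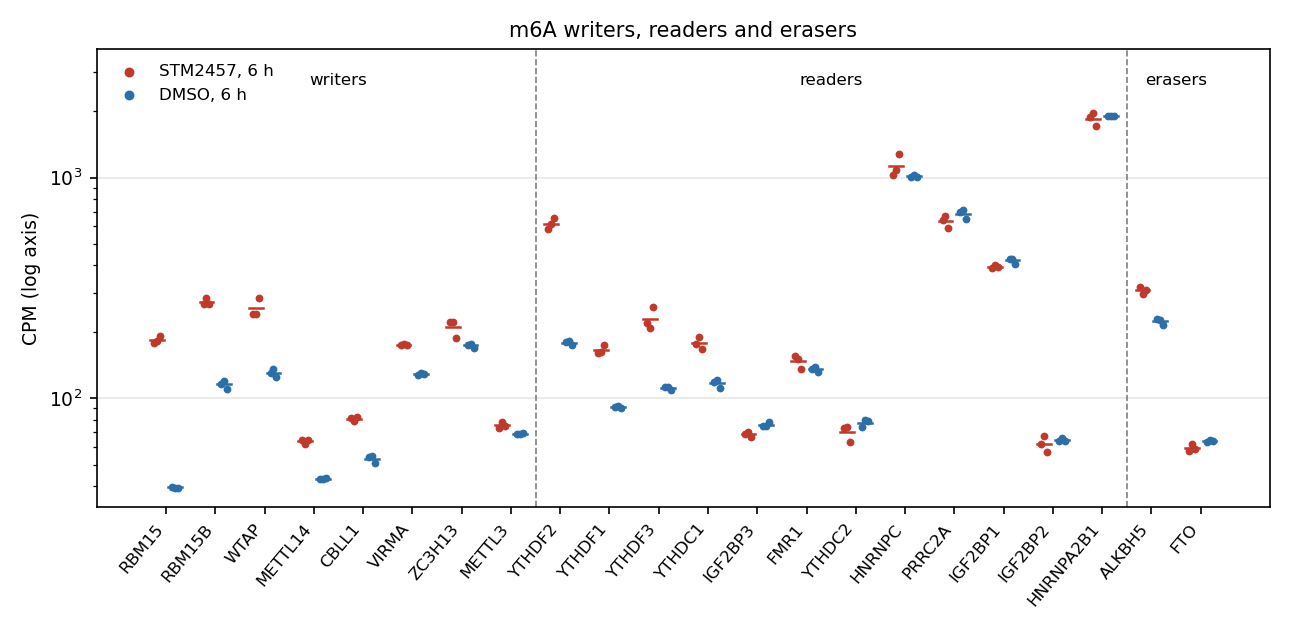
Level of m6A writers, readers and erasers in CPM on a log axis, ordered within each class by p. Points are single libraries, STM2457 left of DMSO, and bars are means of 3 libraries. The groups stand apart for RBM15, RBM15B, WTAP and the YTHDF genes and lie close together for METTL3 and FTO.

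Other RNA methyltransferases followed in part: 18 of 34 were higher (52.9%) and 8 lower (23.5%), with MRM3, which methylates mitochondrial ribosomal RNA, at 1.55 (it overlaps GLOD4), the cap methyltransferase CMTR2 at 1.03 and METTL16, which modifies U6 snRNA and the MAT2A transcript, at 0.77. Their median of 0.19 turned to −0.08 with ribosomal protein scaling (8 higher and 12 lower) and to −0.18 with spike-in scaling (2 higher and 8 lower). Among the machinery that degrades mRNA, CCR4-NOT genes were higher in 6 and lower in 3 of 15, with CNOT6, a catalytic deadenylase, at 0.25 (−0.01 and −0.12 under those scalings) and CNOT3 at −0.42 (it overlaps LENG1). Decapping and 5′-to-3′ decay genes were higher in 7 (35%) and lower in 3 (15%) of 20, with DCP1B at 0.54. Nonsense-mediated decay factors were higher in 4 (21.1%) and lower in 3 (15.8%) of 19, both shares below those of all genes (22.9% and 22.1%). With ribosomal protein scaling 2 decapping genes were higher and 11 lower, and with spike-in scaling none was higher and 3 were lower. Of the nonsense-mediated decay factors 1 was then higher and 8 lower, and 1 higher and 3 lower. No CCR4-NOT gene was higher under either scaling, and 8 and 3 were lower. Of the nonsense-mediated decay factors, SMG8, a subunit of the SMG1 kinase complex, stood out at 190, 176 and 193 CPM with STM2457, against 72.3, 65.9 and 62.9 CPM with DMSO (log2 change 1.48, SE 0.06). Its partner SMG9 fell by 0.32.

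Noncanonical poly(A) and uridyl polymerases, which remodel RNA tails, were higher in 9 and lower in 1 of 12, led by TENT5B (4.62, 3.27 and 4.18 CPM with STM2457, 1.12, 1.27 and 1.13 CPM with DMSO; log2 change 1.78, SE 0.15) and TENT5C (0.74). Of the BTG and TOB adaptors, which tether CCR4-NOT to mRNA, 4 of 5 were higher, with TOB1 at 0.62, BTG1 at 0.59 and BTG2 at 0.50. The median of the adaptors was 0.50, against 0.24 (3 higher and 1 lower) and 0.14 (none called) with ribosomal protein and spike-in scaling. That of the polymerases was 0.33, against 0.07 (3 higher and 2 lower) and −0.04 (1 higher and 1 lower).

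Regulators of splicing split by family in these libraries. Of 27 hnRNP genes 13 were lower (48.1%) and 3 higher (11.1%), with a median of −0.11. HNRNPL, the paralog of HNRNPLL, was at 202, 217 and 225 CPM with STM2457, against 371, 376 and 366 CPM with DMSO (−0.79, SE 0.05), and HNRNPH2 fell by 0.63. HNRNPF, which binds G-tracts, went the other way, at 767, 793 and 824 CPM with STM2457 and 448, 455 and 451 CPM with DMSO (0.81, SE 0.05). SR splicing factors were higher in 7 of 14 (50%, against 22.9% of all genes) and lower in none, among them SRSF4 at 0.46. That count was 5 higher and 2 lower without STM2457 replicate 3, with 11 called in all without STM2457 replicate 2 and 4 without any 1 DMSO library, and the median of 0.14 turned to −0.13 and −0.24 with ribosomal protein or spike-in scaling. In the emetine experiment 4 of 14 SR factors were higher and 1 lower, with a median of 0.06. There 26% of all genes were higher, and 13 of 27 hnRNP genes were lower and 4 higher.

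Families of developmental transcription factors were called higher well above the 22.9% of all genes. Of 37 HOX genes, which set position along the body axis, 29 were higher (78.4%) and 1 lower, with a median of 0.50. With ribosomal protein scaling the median was 0.23, with 15 higher and 3 lower, and with spike-in scaling 0.13, with 4 higher and 3 lower. All 11 HOXA genes tested were higher (0.25 to 1.11), as were 6 of 9 HOXB, 6 of 9 HOXC and 6 of 8 HOXD genes. HOXC9 was at 32.9, 34.0 and 35.2 CPM with STM2457, against 15, 15.8 and 15.4 CPM with DMSO (1.15, SE 0.06; it overlaps HOXC6), and HOXA5 at 104, 103 and 106 CPM with STM2457 and 60.6, 61.2 and 57.0 CPM with DMSO (0.81). FOX genes were higher in 20 and lower in 8 of 33, with FOXC1 at 0.90 and FOXF2 at 0.85. SOX genes were higher in 7 and lower in 1 of 12, with SOX4 at 146, 134 and 121 CPM with STM2457 and 69.9, 70 and 73.1 CPM with DMSO (0.91). The FOX median of 0.40 was 0.15 and 0.04 relative to ribosomal protein genes and spike-ins, where 13 were called higher and 10 lower, and 6 higher and 9 lower. The SOX median of 0.41 was 0.15 and 0.05, with 3 higher and 2 lower under each.

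KLF and SP factors were higher in 14 and lower in 2 of 21, with KLF11 at 0.84 and SP3 at 0.61. The list median of 0.31 was 0.04 and −0.07 under the other scalings (with 8 higher and 3 lower, and 1 higher and 2 lower). ZNF genes were higher in 215 (50.7%) and lower in 55 (13%) of 424, and ZNF703, the paralog of ZNF503, was at 985, 916 and 940 CPM with STM2457, against 341, 354 and 324 CPM with DMSO (1.48, SE 0.06). The ZNF median of 0.24 turned to −0.02 with ribosomal protein scaling (91 higher and 95 lower) and to −0.13 with spike-in scaling (28 higher and 73 lower). Among genes of BTB domain proteins, ZBTB genes were higher in 22 and lower in 5 of 40 (ZBTB2 at 1.02, ZBTB26 at −1.38), and KLHL and KBTBD genes, adaptors of CUL3 ubiquitin ligases, in 21 and 2 of 35. Their medians of 0.27 and 0.33 were −0.09 and −0.04 relative to spike-ins, where 3 ZBTB genes were higher and 6 lower, and 7 KLHL and KBTBD genes higher and 3 lower. KBTBD7 was at 45.4, 44.7 and 48.1 CPM with STM2457 and 17.1, 17.7 and 17 CPM with DMSO (1.42), and KLHL21 and KLHL11 rose by 1.1 and 1.15. KCTD genes, which share the domain, did not lean one way, with 5 higher and 4 lower of 19, from KCTD6 at 1.30 to KCTD11 at −2.07.

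Target and feedback genes of several signalling pathways were often higher. Of 20 BMP and TGF-beta target and feedback genes 13 were higher (65%) and 3 lower, with a median of 0.38 (0.13 and 0.03 under the other scalings, with 8 higher and 5 lower, and 6 higher and 4 lower). MSX2, a homeobox target of BMP, was at 46.6, 46.1 and 48.9 CPM with STM2457, against 17.8, 17.4 and 14.8 CPM with DMSO (log2 change 1.5, SE 0.07), beside ID3 and BAMBI above. HEY1, a repressor downstream of Notch and BMP, was at 220, 223 and 230 CPM with STM2457 and 118, 119 and 115 CPM with DMSO (0.94), and of 15 Notch target genes 8 were higher and 1 lower, HES1 among them at 0.72. Of 20 feedback inhibitors of MAPK and EGFR signalling 11 were higher and 1 lower. ERRFI1, which binds and inhibits the EGF receptor, was at 95.8, 96.4 and 105 CPM with STM2457, against 33.1, 35.2 and 32.1 CPM with DMSO (1.56, SE 0.05), and the phosphatase genes DUSP14 and DUSP7 rose by 1.03 and 0.68. The medians of 0.26 for Notch targets and 0.19 for MAPK inhibitors turned negative under ribosomal protein (−0.00 and −0.07) and spike-in scaling (−0.11 and −0.17).

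Of 30 immediate early genes 11 were higher and 3 lower, with a median of 0.21 (−0.05 and −0.15 under the other scalings). MYC, a growth-promoting transcription factor with an m6A-marked mRNA in several cell types, was at 370, 362 and 358 CPM with STM2457 and 168, 162 and 171 CPM with DMSO (1.12, SE 0.04). RHOB, a small GTPase, was at 364, 332 and 353 CPM with STM2457 and 130, 130 and 136 CPM with DMSO (1.40, SE 0.06). LATS2, a kinase of the Hippo pathway, rose by 1.30, and ZNRF3, a ubiquitin ligase that removes WNT receptors, by 0.75, though the shares of both lists were near the background (4 higher and 2 lower of 15 for Hippo, 3 and 4 of 13 for WNT). Genes of the integrated stress response were higher in 8 (34.8%, against 22.9% of all genes) and lower in 4 (17.4%, against 22.1%) of 23, with CEBPG at 0.94, and p53 target genes in 13 (46.4%) and 5 (17.9%) of 28, with MDM2 at 0.52 (it overlaps CPM, the gene of carboxypeptidase M) and BTG2 at 0.50. Their medians of 0.08 and 0.18 were negative under both other scalings (−0.19 and −0.29, −0.10 and −0.20). In the emetine experiment 14 of 23 integrated stress response genes were higher and 1 lower, with a median of 0.25. Of 28 p53 target genes 13 were higher and 4 lower there, with a median of 0.20. Of all genes in that experiment 26% were higher and 21.9% lower. The heat shock list was higher in 8 and lower in 1 of 19, with a median of 0.12 (−0.15 and −0.25): HSPA1B, an inducible HSP70, was at 1229, 1054 and 958 CPM with STM2457 and 562, 521 and 621 CPM with DMSO (0.93), and its near-identical copy HSPA1A at 0.97 may share its reads. This lean of the heat shock list was not seen in the emetine experiment, with 7 higher and 6 lower of 19 and a median of −0.01. Unfolded protein response and NF-kB lists were close to the background in these libraries, with 5 higher and 5 lower of 22 (6 in all without DMSO replicate 2) and 3 and 3 of 17. In the emetine experiment the unfolded protein response list was not, with 12 higher and 3 lower of 22 and a median of 0.12. The NF-kB list had 4 higher and 2 lower of 14 there.

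**Figure D4:**
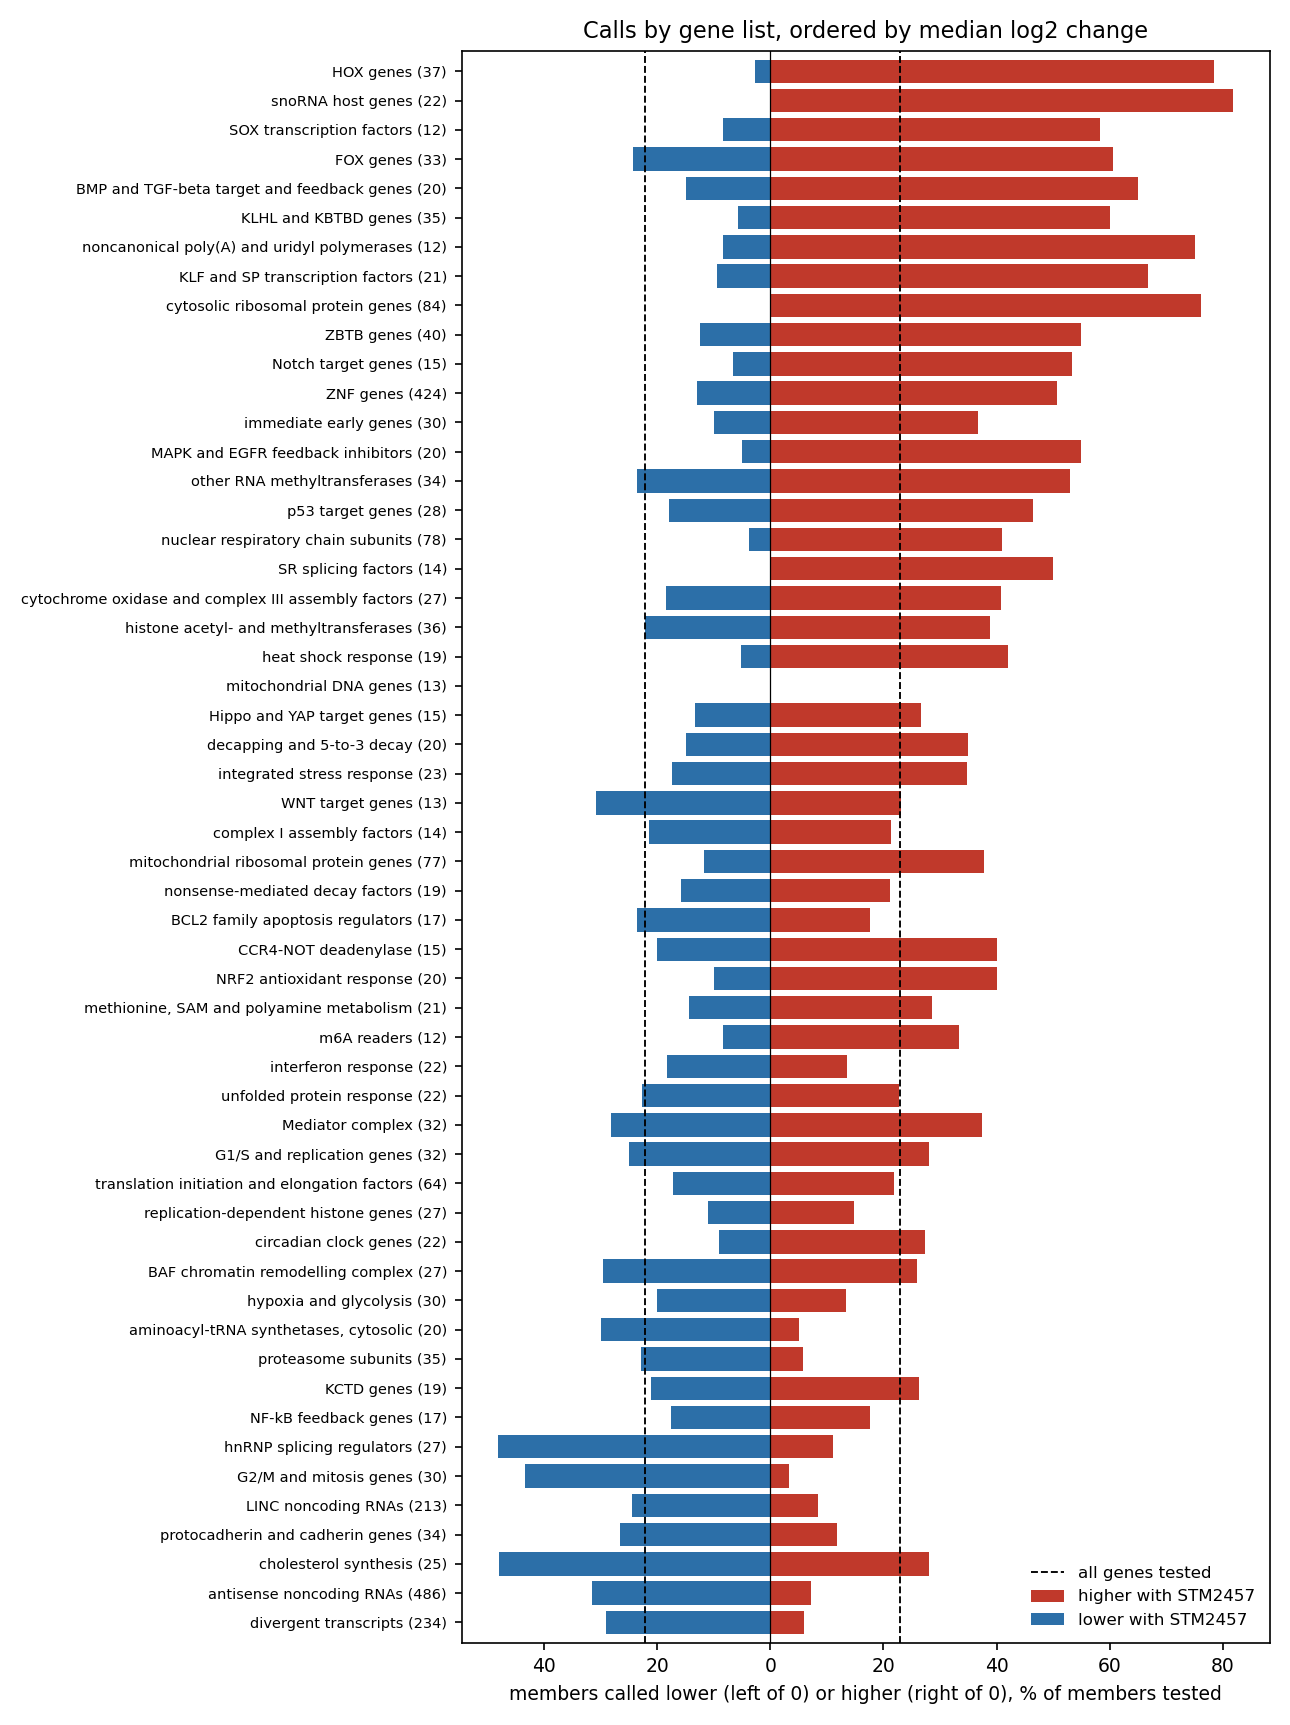
Share of members called higher (right of 0) or lower (left of 0) with STM2457, in percent of members tested, for gene lists with at least 12 tested members, ordered by median log2 change, with the number tested in parentheses and dashed lines at the shares of all genes (22.9% and 22.1%). HOX genes, snoRNA host genes and cytosolic ribosomal protein genes have the longest bars to the right among the lists shown, and hnRNP, cholesterol synthesis and G2/M genes the longest to the left.

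Of 30 G2/M and mitosis genes 13 were lower (43.3%) and 1 higher, with UBE2C, a ubiquitin-conjugating enzyme of the anaphase-promoting complex, at 77.4, 83.3 and 85.7 CPM with STM2457 and 120, 118 and 112 CPM with DMSO (log2 change −0.51, SE 0.05). CDC20, an activator of the same complex, was at 134, 142 and 155 CPM with STM2457 and 209, 214 and 196 CPM with DMSO (−0.53, SE 0.06). G1/S and replication genes had 9 higher (28.1%) and 8 lower (25%) of 32, near the 22.9% and 22.1% of all genes. Among them the flap endonuclease gene FEN1 was at 0.90 (it overlaps FADS2 and TMEM258) and ORC1 at 0.52. Cholesterol synthesis genes were lower in 12 (48%) and higher in 7 of 25, with a median of −0.20, against −0.04 in the emetine experiment, where 10 were lower and 7 higher. The mevalonate kinase gene MVK fell by 0.44, while the sterol dehydrogenase gene NSDHL was at 0.61 and the methyl oxidase gene MSMO1 at 0.72. Aminoacyl-tRNA synthetases were lower in 6 and higher in 1 of 20, with both subunits of the phenylalanine enzyme at −0.42 (FARSA) and −0.41 (FARSB). Proteasome subunits were lower in 8 of 35 (22.9%, near the 22.1% of all genes) and higher in 2 (5.71%, against 22.9% of all genes). The count was 19 lower and 1 higher without STM2457 replicate 3, and 6 in all without DMSO replicate 2. In the emetine experiment 22 of 34 proteasome subunits were lower and 1 higher, with a median of −0.18. Of all genes tested there 21.9% were lower.

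Counts for genes of translation and respiration moved with STM2457 replicate 3. Cytosolic ribosomal protein genes were higher in 64 of 84 (76.2%) and lower in none, with RPS12 at 830, 819 and 1117 CPM with STM2457 and 659, 629 and 657 CPM with DMSO (0.51, SE 0.09). Without STM2457 replicate 3 the count was 46, and the median of 0.28 was −0.11 relative to spike-ins and −0.00 relative to these genes themselves. In the emetine experiment 69 of 84 were higher and 1 lower, with a median of 0.17. Initiation and elongation factors were higher in 14 (21.9%) and lower in 11 (17.2%) of 64, with a median of 0.02 (−0.25 and −0.36 under the other scalings). Neither share was above that of all genes (22.9% and 22.1%). Without STM2457 replicate 3 these factors were higher in 8 and lower in 15. Mitochondrial ribosomal protein genes were higher in 29 and lower in 9 of 77, but in 21 and 23 without that library, and nuclear respiratory chain subunits in 32 and 3 of 78, but in 19 and 10 without it. Their medians of 0.06 and 0.17 turned negative under both other scalings (−0.21 and −0.32, −0.11 and −0.22). In the emetine experiment 19 of 77 mitochondrial ribosomal protein genes were higher and 26 lower, and 28 of 76 respiratory chain subunits higher and 11 lower. MRPL44, a mitochondrial ribosomal protein gene, rose by 0.99. Assembly factors of cytochrome oxidase and complex III were higher in 11 and lower in 5 of 27, but in 8 and 9 without STM2457 replicate 3, with a median of 0.14 (−0.14 and −0.26 under the other scalings). Of these, the copper chaperone gene SCO2, which overlaps TYMP, rose by 1.42. Of 18 snoRNA host genes that rose among 22 tested, SNHG3 was at 129, 133 and 153 CPM with STM2457 and 75.9, 75.4 and 76.9 CPM with DMSO (0.86; it overlaps RCC1). SNHG16 was at 189, 189 and 191 CPM with STM2457 and 130, 122 and 127 CPM with DMSO (0.59). Their median of 0.46 was 0.19 with ribosomal protein scaling (10 higher and 2 lower) and 0.07 with spike-in scaling (2 higher and none lower).

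The most abundant called mRNAs moved little. ACTB, which encodes beta-actin, was at 1622, 1636 and 1751 CPM with STM2457, against 1982, 1916 and 1876 CPM with DMSO (log2 change −0.21, SE 0.06, edgeR adjusted p = 0.00573). The chaperone CALR fell by 0.31, the scaffold protein gene HNRNPU by 0.38 (it overlaps COX20) and the initiation factor EIF4G2 by 0.22 (it overlaps CTR9). EEF1A1, the elongation factor with the highest level of all called genes, was at 3561, 3783 and 4556 CPM with STM2457 and 3294, 3333 and 3422 CPM with DMSO (0.24, edgeR adjusted p = 0.0185). Without STM2457 replicate 3 that change was 0.12 and did not pass (0.0917), nor did it without DMSO replicate 1 (0.22, 0.0777) or 2 (0.22, 0.0637), and its sign turned with ribosomal protein or spike-in scaling (−0.03 and −0.14).

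Of 2005 long noncoding RNAs tested 538 were lower (26.8%) and 181 higher (9.03%), with a median of −0.20, beside 22.1% lower and 25.9% higher among mRNAs, and antisense RNAs had 30.6% lower and 6.77% higher of 945. The share was 23.4% lower and 9.97% higher among the 1063 whose exons overlap no coding gene, and 30.7% and 7.96% among the 942 that do overlap one. Since the strand setting of the counting is not given in the sources used here, reads of the 2 genes cannot be told apart where they overlap. By name, LINC RNAs were lower in 52 (24.4%) and higher in 18 (8.45%) of 213. Divergent transcripts, which start opposite a coding promoter, were lower in 68 (29.1%) and higher in 14 (5.98%) of 234. Of all genes tested 22.1% were lower and 22.9% higher, so the share of LINC RNAs called lower was near that of all genes. LINC00205 was at 10.3, 10.3 and 8.97 CPM with STM2457, against 31.6, 32.4 and 32.9 CPM with DMSO (log2 change −1.71, SE 0.08), and BAIAP2-DT at 5.52, 5.92 and 3.92 CPM with STM2457 and 19.3, 17.7 and 19.2 CPM with DMSO (−1.87, SE 0.10). UBA6-DT (−1.26, it overlaps GNRHR) and LINC01694 (−1.21) fell less, and CIRBP-AS1 (−1.69) and HERPUD2-AS1 (−1.54) overlap the genes they are named for.

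Among the long noncoding RNAs that rose, EMSLR was at 27.2, 26.2 and 28.1 CPM with STM2457, against 9.24, 10.1 and 9.17 CPM with DMSO (log2 change 1.51, SE 0.06, edgeR adjusted p = 2.82e-12). ENSG00000277534 and ENSG00000260400, without a symbol in the files, rose by 1.09 and 0.93, and the snoRNA host SNHG19 by 0.93. Processed pseudogenes were higher in 18.3% and lower in 4.87% of 493, with a median of 0.30 that was 0.03 in the emetine experiment, and their reads may belong to the parent mRNAs.

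The emetine experiment holds 3 STM2457 and 3 DMSO libraries of a 6 h treatment without emetine, which are labelled with a further 2 h of DMSO and share no library with the 6 above. Of the 3814 higher genes 3749 were tested there and 3050 (81.4%) were called higher, where 26% of all its genes were, and 13 were called lower. Of the 3677 lower genes 3600 were tested and 2341 (65%) were called lower, where 21.9% of all its genes were, and 16 were called higher. The shared calls were 80% of the rises in the siRNA experiment and 74.2% of those in the emetine experiment, and 63.7% and 67.7% of the falls. Of the genes past 2-fold, 240 of 266 rises and 318 of 434 falls tested there were called in the same direction at any size and none in the opposite one. The shares of all genes called at any size in the emetine experiment were the 26% higher and 21.9% lower given above. By 2-fold or more 1.84% of all its genes rose and 2.88% fell. Each of the 12 largest rises was called higher there (1.54 to 2.18), and each of the 12 largest falls was called lower (−3.02 to −1.19).

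The effect of STM2457 differed between the siRNA and the emetine experiment in 9 of 16241 genes (0.0554%) by edgeR's test of the interaction, 6 (0.0369%) with the larger value in the siRNA experiment and 3 (0.0185%) with the smaller, while 1963 had an unadjusted p under 0.05 and DESeq2 called 73 and 50. PIP5K1C, a phosphoinositide kinase, held 38.8, 37.6 and 35.8 CPM with STM2457 and 37.5, 39.0 and 37.5 CPM with DMSO in the siRNA experiment (log2 change −0.02), against 0.73 in the emetine experiment (difference −0.73, SE 0.07, edgeR adjusted p = 4.59e-05). None of the 24 largest changes differed past the threshold. At 9 h, in another set of libraries with no test of the difference, all 12 rises were also called higher (0.88 to 1.93) and 11 of the 12 falls were called lower, while CHML was higher at 0.32. Of the long noncoding RNAs, CIRBP-AS1 was higher at 1.02. Over all genes, 2725 of 3760 rises tested at 9 h were called higher and 339 lower, and 2216 of 3580 falls were called lower and 332 higher. Time and experiment cannot be told apart there.

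**Figure D5:**
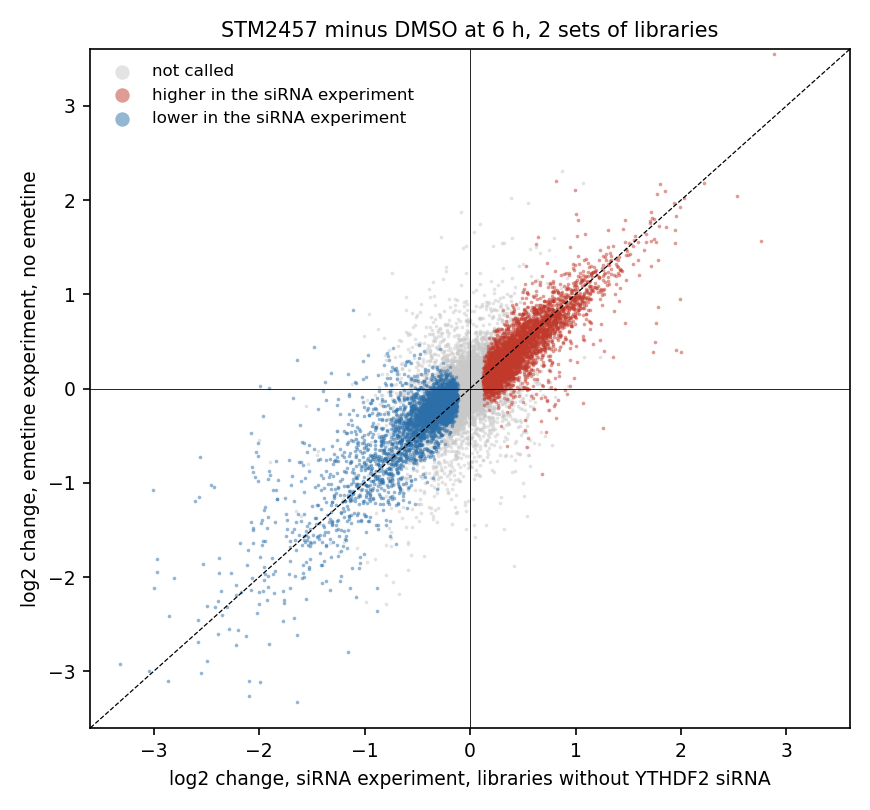
Log2 change with STM2457 at 6 h in the libraries of the siRNA experiment without YTHDF2 siRNA (horizontal axis) and in the emetine experiment without emetine (vertical axis), 1 point per gene, 15575 genes, with 8 outside the range. Red and blue points are genes called higher and lower in the siRNA experiment, grey points were not called, and the dashed line marks equal change; most coloured points keep their sign on the vertical axis.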

How the data were processed

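The deposited files hold read counts per gene and library as the authors made them. Per the submitters' processing notes, the tools include STAR 2.7.3a, featureCounts, Subread 2.0.0 and SAMtools 1.9 beside cutadapt 1.18 and 4.0, FastQC 0.11.8 and Trimmomatic, and the build is GRCh38.p12. The sources used here give neither the strand setting of the counting nor the annotation release. Per the labels' protocols, libraries were stranded and poly(A)-selected, and STM2457 (20 µM) stayed on the cells for 6 h.

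From these counts, 92 ERCC rows were set apart and the 12 libraries of the siRNA experiment were fitted in edgeR 4.0.16 (R 4.3.3) with trimmed-mean scaling, filterByExpr and the quasi-likelihood test, with Benjamini-Hochberg adjustment over 16662 genes and a threshold of 0.05. The same model was fitted to the emetine experiment and, as an interaction, to the 12 libraries at 6 h without YTHDF2 siRNA or emetine. The test was tried on simulated counts. Symbols matched 42039 of 60662 gene IDs. Biotypes, exon overlaps and the transcript with the longest coding sequence come from GENCODE 29, and log2 CPM has a prior count of 2. The lists and named genes were chosen with earlier results of these data known.

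Named are METTL3 and YTHDF2, the 12 largest rises and 12 largest falls among protein coding genes and the 4 largest in each direction among long noncoding RNAs (adjusted p under 0.05, mean log2 CPM of at least 2, no overlap between groups), the 5 called mRNAs of highest level in each direction, members of each list described by smallest p (up to 4, but all 8 writers and 5 readers, chosen after seeing the data) and the 4 largest differences between experiments in each direction. For gene structure, the motif's distance to junctions and a minimum level were also chosen after seeing the data. Alternatives were DESeq2 1.42.0, DESeq2 size factors in edgeR, scaling to ribosomal protein genes or spike-ins, no filter, the compared libraries alone, a replicate block and leaving out each library.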

Additional observations from a re-analysis of the deposited data

Results flagged for a closer look

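In 7 named genes the effect of STM2457 differed between the siRNA experiment and the emetine experiment by edgeR's quasi-likelihood test of the interaction, with values given as the siRNA experiment minus the emetine experiment on the log2 scale. CRYBG3 differed by 0.67 (−0.76 and −1.41, edgeR adjusted p = 0.0181), UQCR11, a subunit of complex III, by 0.65 (−0.57 and −1.20, 0.0181), ZNF780A by 0.61 (−0.40 and −0.99, 0.0428) and TAF11, a subunit of TFIID, by 0.58 (0.47 and −0.08, 0.0181). More negative in the siRNA experiment were PIP5K1C at −0.73 (−0.02 and 0.73, 4.59e-05), NCEH1 at −0.68 (−0.29 and 0.42, 0.0466) and RNF44 at −0.44 (−0.27 and 0.20, 0.0428). All 7 calls were lost with ribosomal protein scaling, 6 with spike-in scaling (PIP5K1C was kept) and 2 with a replicate block (ZNF780A and RNF44). Leaving out any 1 library other than the siRNA experiment's STM2457 libraries lost 5 or 6 of them, and PIP5K1C was kept in each case. Exons of CRYBG3, UQCR11 and TAF11 overlap another coding gene.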

How the results depend on the processing

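The counts of higher and lower genes stayed within 1.5 times the reported ones with DESeq2, DESeq2 size factors, no filter, the compared libraries alone and a replicate block (3897 higher and 3738 lower), and leaving out single libraries gave 3141 to 3718 higher and 3331 to 3914 lower genes. With ribosomal protein scaling 1252 genes were higher and 7363 lower, and with spike-in scaling 398 were higher. In the emetine experiment these scalings gave 2200 higher and 6688 lower genes, and 2092 higher, and leaving out libraries gave 3433 to 3726 higher and 3565 to 3778 lower. The cause was not tested. For the difference between experiments (6 genes more positive and 3 more negative) DESeq2 gave 73 and 50, no filter 76 and 55, the 9 h libraries in the fit 101 and 40, ribosomal protein scaling 0 and 0, spike-in scaling 0 more positive, the replicate block 3 more positive, and leaving out libraries 0 to 42 and 1 to 15. Same-numbered libraries did not deviate together (r of 0.0968, 0.0731 and −0.178 over 11101 genes), so the numbers were not taken as pairs, and the block changed no call of STM2457 against DMSO in a named gene but lost the call of the difference in ZNF780A (0.61, adjusted p = 0.0788) and RNF44 (−0.44, 0.107).

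With ribosomal protein scaling first and spike-in scaling second, the sign turned for METTL3 (−0.13 and −0.23), RPS4X (−0.0693 and −0.17), EEF1A1 (−0.032 and −0.14), CNOT6 (−0.00888 and −0.12), RPL5 (−0.00574 and −0.12) and RPS2 (−0.00174 and −0.11), and under spike-in scaling alone for RPS6 (−0.0847), ZC3H13 (−0.0686), TNIP2 (−0.063) and PSMD7 (−0.0258). The difference of medians by junction density was 0.35 among genes of mean log2 CPM of at least 4 and 0.277 to 0.312 with single libraries left out, that by coding GGACT 0.159 to 0.239, and that by 3′ UTR GGACT −0.00501 to 0.0384, the lowest without STM2457 replicate 1. The spike-in share differed by 0.0465 to 0.114 percentage points. Calls of m6A readers numbered 8 without STM2457 replicate 2, against 5. Low depth limits the noncoding RNAs, which lie mostly in the quintile of lowest abundance.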
